A study of Mus musculus with 6 samples.

Results

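TRIM proteins are a large family named for the tripartite motif, and their genes are described here in RAW 264.7 cells, a mouse macrophage line. The members were the protein-coding rows of the deposited count table whose symbol is Trim followed by a digit, and 68 of the 57010 rows met that rule. Another 2 rows, both named Trim30e-ps1, have other biotypes and held 0 counts in each library. Macrophages of both groups had first received lipopolysaccharide, which drives macrophages to an inflammatory M1 state, and were then given extracellular vesicles (EVs) of tendon stem cells. In the normoxic-EV group (3 samples) the vesicle donors had been kept in normoxia, and in the hypoxic-EV group (3 samples) the donors had been preconditioned in hypoxia. Cells given lipopolysaccharide alone were not analysed here, so each difference is between the 2 kinds of vesicle. The donors' species is not stated. Whether samples were separate cultures is not stated either, so the p-values cover only the spread among these 6 libraries, part or all of which may be technical.

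The tripartite motif consists of a RING domain, which in most members makes the protein a ubiquitin ligase, followed by B-box zinc fingers and a coiled coil. The part that follows differs between members and sets what each protein binds: a PRY-SPRY domain in most, NHL repeats, a PHD finger with a bromodomain, or a membrane anchor in others. Many TRIM genes are induced by interferon, and several of the proteins attach ubiquitin to sensors and adaptors of antiviral and Toll-like receptor signalling in macrophages, some activating and some restraining it. Others act in chromatin, at the centrosome or in muscle.

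Library totals ran from 16751665 to 23422328 counts. Libraries of a group differed by more than counting noise (chi-square per degree of freedom from 2.72 to 5.84), and each was kept as its own sample. Of 8 macrophage markers, 8 passed the count filter, and their summed level was 9893 to 10342 CPM (counts scaled to a common library size) in normoxic-EV and 8033 to 8378 CPM in hypoxic-EV. Most of that sum is Lyz2, with means of 7946 and 6091 CPM. Adgre1, Lyz2, Cd14, Fcgr1 and Spi1 fell, Csf1r (2.02-fold) and Itgam rose, and Cd68 was not called. None of 10 tendon and stromal markers passed the filter. Their sum was 0.957 to 1.87 CPM in normoxic-EV and 0.817 to 1.36 CPM in hypoxic-EV, and Tnmd, Col1a2, Col3a1 and Thbs4 were at 0 in each library. Cd79a, a gene of the B cell receptor, was low, at 0.304 ± 0.147 CPM with normoxic-EV against 0.789 ± 0.0327 CPM with hypoxic-EV (log2 fold change 1.36, edgeR adjusted p = 0.00849). It passed the filter only through hypoxic-EV, so a tested Cd79a had to differ. The part of these shifts in the results was not tested. In RNA from whole cultures, fewer cells expressing a gene and less RNA of it per cell cannot be told apart.

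Members of the family moved in both directions, and most moved little. Of the 68 members, 40 passed the filter on low counts and were tested, 18 had some counts but did not pass, and 10 had 0 counts in all 6 libraries. By edgeR's quasi-likelihood test at a Benjamini-Hochberg adjusted p under 0.05, 9 members were higher and 12 lower in hypoxic-EV, which is 52.5% of those tested. Over all 13303 genes tested the share was 44.2% (22.7% higher and 21.5% lower), so the family's share lay near the background. In 24 of the 40 tested members all libraries of one group lay beyond those of the other, against 52.8% of all tested genes. A call with a log2 fold change of at least 0.5 in size was made in 7 members, against 14.5% of all tested genes. The 9 higher, the 24 and the 7 each include Trim54, which passed the filter only through hypoxic-EV and so had to differ. The median log2 fold change of the tested members was 0.01, and the median size was 0.25, against 0.21 over all tested genes. The summed level of the 68 genes was 2018 to 2059 CPM in normoxic-EV and 2007 to 2033 CPM in hypoxic-EV, ranges that overlap. Among tested members, 10 overlap another counted gene that has at least 20% of their own counts, and 5 of these 10 were called.

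**Figure D1:**
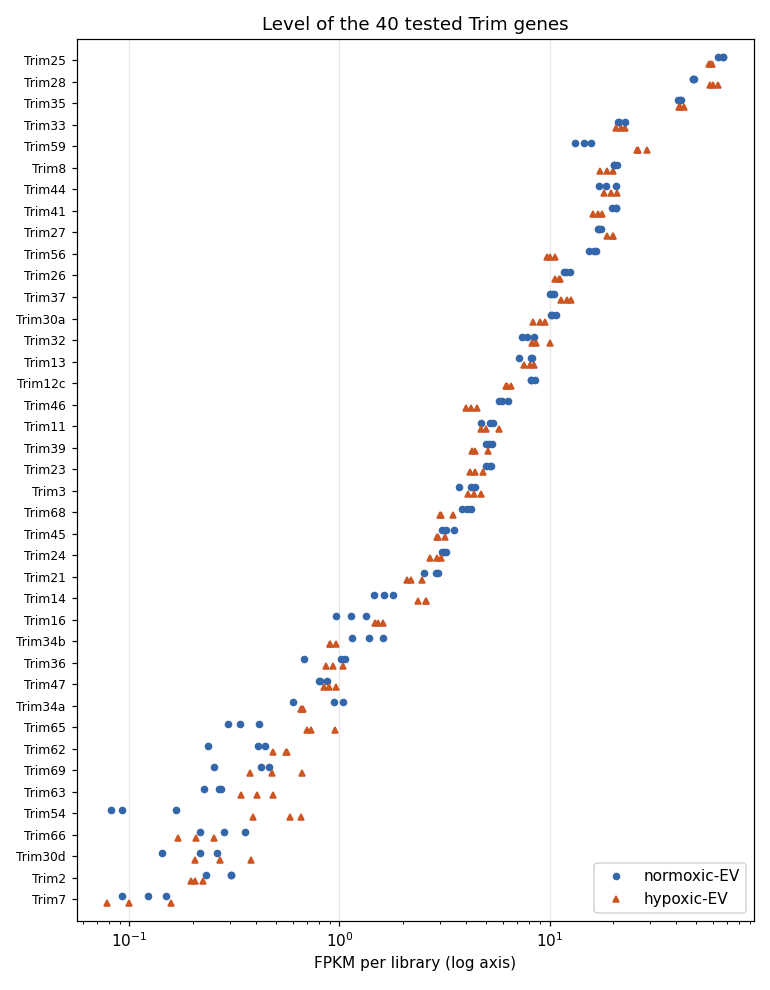
Expression per transcript length (FPKM, log axis) of the 40 tested Trim genes in each library, ordered by mean level, with circles for normoxic-EV and triangles for hypoxic-EV (3 libraries each). The family spans from Trim25, with a mean of 62.1 FPKM over the 6 libraries, to Trim7, with 0.117 FPKM, and in most rows the symbols of the 2 groups lie close together.

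Levels between genes were compared in FPKM, the deposited values scaled for gene length. Trim25, which encodes a ligase for the RNA sensor RIG-I, had the highest level of the family, at 65.6 ± 1.82 FPKM in normoxic-EV and 58.5 ± 0.867 FPKM in hypoxic-EV (SD, n = 3). Trim28, the corepressor of KRAB zinc finger proteins, was at 48.4 ± 0.345 and 60.3 ± 2.51 FPKM, so it passed Trim25 in mean level in hypoxic-EV, where the libraries of the 2 genes overlap in level. Trim35 followed at 41.5 ± 0.632 and 42.2 ± 1.07 FPKM. The next 5 by mean level were Trim33, Trim59, Trim8, Trim44 and Trim41. In normoxic-EV the level of Trim59 (14.5 ± 1.30 FPKM) was below those of Trim8 (20.5 ± 0.325 FPKM) and Trim41 (20.4 ± 0.544 FPKM), and in hypoxic-EV it was above them, at 27.2 ± 1.56 FPKM against 18.7 ± 1.37 and 17.0 ± 0.779 FPKM. A mean level of at least 1 FPKM was found for 28 members, all of which were tested. Of these 6 were called higher and 11 lower, or 60.7%, against 44.2% of all tested genes (22.7% higher and 21.5% lower). The 12 tested members under 1 FPKM had 3 called higher and 1 lower, or 33.3%. The 3 include Trim54, which passed the filter only through hypoxic-EV and so had to differ. Whether calls differ by level was not tested.

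**Figure D2:**
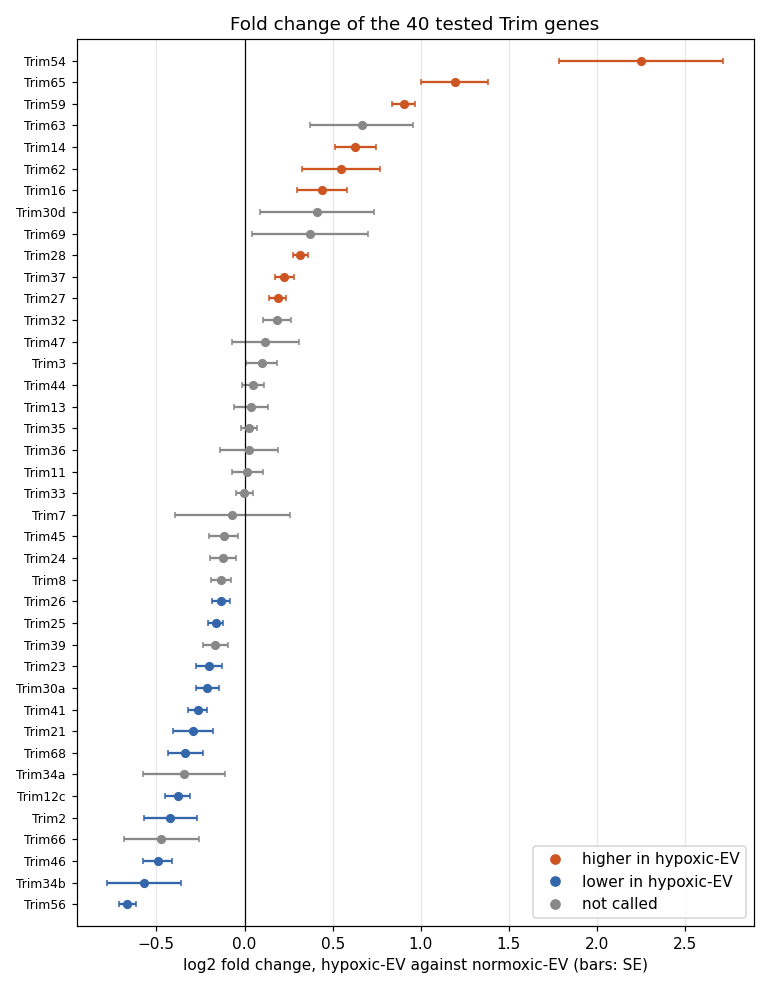
Log2 fold change of the 40 tested Trim genes, hypoxic-EV against normoxic-EV, with bars of 1 SE from edgeR. Genes called higher are orange, genes called lower blue and the others grey. The points run from Trim56 at -0.66 to Trim54 at 2.25, and most lie within 0.5 of 0.

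The ligases of RNA, DNA and Toll-like receptor signalling were grouped with Trim14, an adaptor without a RING domain. In this group 9 fell with hypoxic-EV, 3 rose and 5 were not called, of 17 tested and 22 in all (median log2 fold change -0.16). Over all tested genes 21.5% fell and 22.7% rose. The median size of change was 0.20 in this group, against 0.21 over all tested genes. The difference between the group and other genes was not tested. The calls of 4 of the 9 (Trim21, Trim23, Trim26 and Trim30a) ended when single libraries were left out. Trim62, whose product is a ligase for a signalling adaptor and which rose, is counted with the other roles. Trim33, known to repress the interferon-beta gene, was not called and is counted with the chromatin cofactors. Trim56, an interferon-induced ligase known to act on the DNA-sensing adaptor STING, fell most among the signalling ligases. Its CPM values were 143, 155 and 150.4 in the normoxic-EV libraries and 97.4, 94.3 and 91.4 in the hypoxic-EV libraries. The lowest normoxic-EV library stood well above the highest hypoxic-EV library. Trim56 (ENSMUSG00000043279, chromosome 5, 137134498 to 137145063, GRCm39) was 1.59-fold lower (log2 fold change -0.66, standard error 0.0495, edgeR adjusted p = 6.88e-10). The difference kept its call in each alternative run for it.

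Trim25 fell by far less, although its counts were the deepest of the family. Its CPM values were 385, 365 and 384 in normoxic-EV and 336, 342 and 334 in hypoxic-EV. The groups did not overlap, and the fall was small (log2 fold change -0.16, standard error 0.0444, edgeR adjusted p = 0.00473). Trim41, whose protein binds protein kinase C, had 72.9, 72.7 and 69.5 CPM in normoxic-EV and 61.5, 57.2 and 60.1 CPM in hypoxic-EV. Each normoxic-EV library was above each hypoxic-EV library (log2 fold change -0.27, standard error 0.0538, edgeR adjusted p = 0.000391). Trim41 overlaps the highly expressed gene Rack1 on the other strand by 31 bases. Rack1, whose total count was 2310% of that of Trim41, was not called (log2 fold change -0.03).

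The other members of this group that fell did so by less than 0.4 on the log2 scale. Trim68, whose human protein is known as a coactivator of the androgen receptor, was lower in each hypoxic-EV library (log2 fold change -0.34, edgeR adjusted p = 0.00924). Trim21, the cytosolic antibody receptor that directs bound virus to the proteasome, fell from 10.4 ± 0.828 to 8.38 ± 0.784 CPM (-0.29, adjusted p = 0.043). Trim23, a ligase that carries an ARF-type GTPase domain, and Trim26, a ligase reported to target nuclear IRF3, had log2 fold changes of -0.20 (adjusted p = 0.0307) and -0.14 (adjusted p = 0.0376). These last 3 calls rest on small margins. The call of Trim21 ended without normoxic-EV replicate 1 or 2 or hypoxic-EV replicate 1 or 2, with adjusted p from 0.0905 to 0.157. That of Trim23 ended without normoxic-EV replicate 1 or 3 or hypoxic-EV replicate 1 or 3, with adjusted p from 0.0784 to 0.139. That of Trim26 ended without each library other than normoxic-EV replicate 3, with adjusted p from 0.0632 to 0.193. Trim12c and Trim30a, which also belong to this group, are described with the chromosome 7 cluster.

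The 3 signalling members that rose were Trim65, Trim14 and Trim27. Trim65 encodes a ligase for the RNA sensor MDA5. It was read at 41, 34 and 39 counts in normoxic-EV and 94, 85 and 97 counts in hypoxic-EV, or 2.45, 1.99 and 1.73 CPM against 5.55, 4.34 and 4.17 CPM. The groups were far apart, and Trim65 (ENSMUSG00000054517, chromosome 11, 116012672 to 116021954) was 2.28-fold higher (log2 fold change 1.19, standard error 0.189, edgeR adjusted p = 2.75e-05). The authors' deposited table, which lists 462 genes and only Trim65 and Trim54 of this family, gives Trim65 a log2 fold change of 1.19 and an adjusted p of 3.4e-05. Trim65 shares 5365 bases of its span with Trim47 on the same strand, so reads in the shared part cannot be assigned with certainty. Trim47 itself stood at 2.26 ± 0.116 CPM and 2.46 ± 0.136 CPM (log2 fold change 0.12, adjusted p = 0.65).

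Trim14, an adaptor without a RING domain that binds the mitochondrial signalling protein MAVS, had 7.84, 7.06 and 6.31 CPM in normoxic-EV and 11.1, 11.2 and 10.3 CPM in hypoxic-EV. All hypoxic-EV libraries were higher (log2 fold change 0.63, standard error 0.115, edgeR adjusted p = 0.000139). It overlaps the sialic acid synthase gene Nans on the other strand by 9852 bases, and 29.5% of the distinct 50-base words of its annotated transcripts also occur in those of Nans. The total count of Nans was 878% of that of Trim14, and Nans rose by 0.18 (adjusted p = 0.00742). The part of those reads in the value of Trim14 was not tested. Trim27, reported to restrain TBK1 and IKK signalling, rose slightly, from 96.6, 94.4 and 93.3 CPM to 109, 104 and 111 CPM (log2 fold change 0.19, standard error 0.0491, edgeR adjusted p = 0.00375). Its groups did not overlap, and the rise was 1.14-fold.

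The 5 tested signalling members that were not called were Trim8, Trim11, Trim13, Trim32 and Trim39. Trim8, a ligase for the kinase TAK1, was the closest to the threshold, with 77.6, 75.1 and 75.3 CPM in normoxic-EV and 73.5, 64.7 and 69.9 CPM in hypoxic-EV. The groups did not overlap but lay close (log2 fold change -0.13, edgeR adjusted p = 0.0581), and without hypoxic-EV replicate 1 the fall was called (adjusted p = 0.0251). Trim39, which inhibits the anaphase-promoting complex, was at -0.17 (adjusted p = 0.061) and was called without hypoxic-EV replicate 1 (adjusted p = 0.014). Trim32, an NHL-repeat ligase mutated in a form of muscular dystrophy, was at 0.18 (adjusted p = 0.0678) and was called without hypoxic-EV replicate 2 (adjusted p = 0.0163). Trim11 and Trim13, the latter anchored in the endoplasmic reticulum, were at 0.02 and 0.04 with overlapping groups. Trim15, Trim29, Trim31, Trim38 and Trim40 did not pass the filter, and the most any of them had in all 6 libraries together was 8 counts (Trim15).

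**Figure D3:**
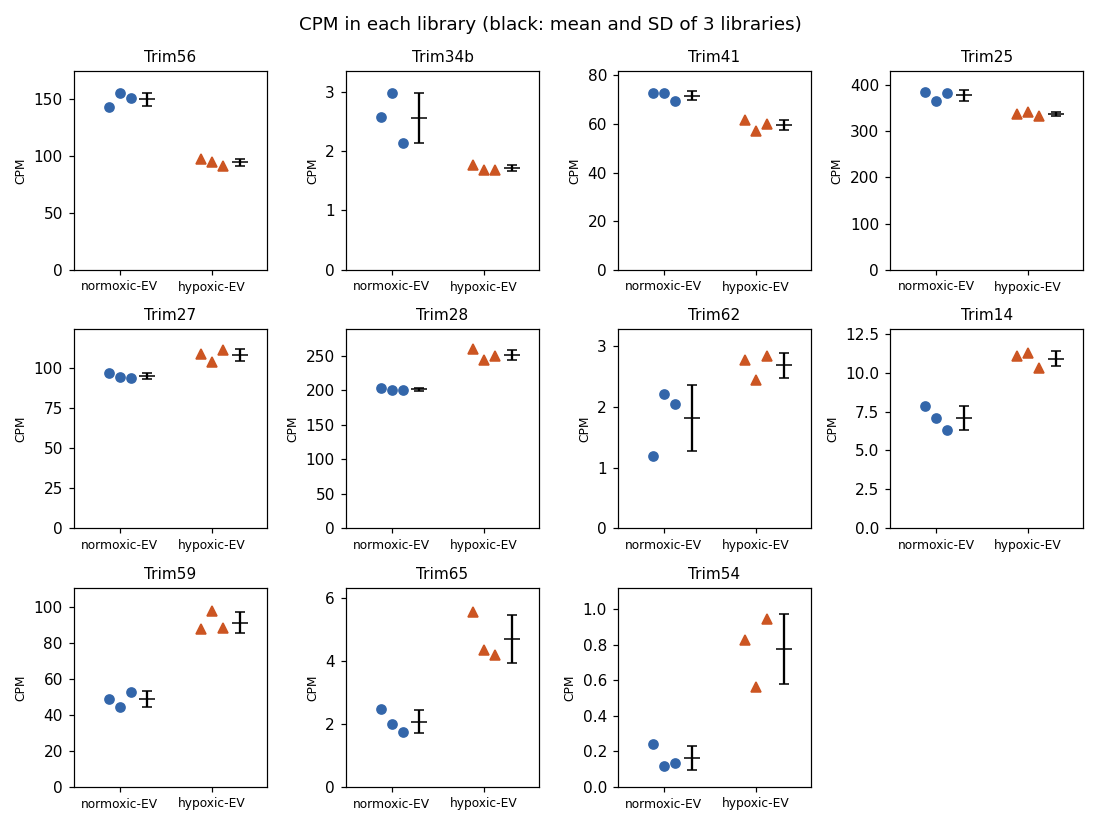
CPM in each library for the 11 Trim genes named with full values that were called, with circles for normoxic-EV, triangles for hypoxic-EV and the mean and SD of 3 libraries in black; each vertical axis starts at 0. In all 11 panels the symbols of the groups do not overlap, and the gap is widest relative to the level for Trim54, Trim65, Trim59 and Trim56. Trim54 passed the count filter only through hypoxic-EV, so its groups had to differ.

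The cluster on chromosome 7 holds the mouse relatives of the retrovirus restriction factor TRIM5 and was lower or not called. From 103868000 to 104157056 (GRCm39) lie 10 members: Trim6, Trim34a, Trim5, Trim12a, Trim34b, Trim12c, Trim30b, Trim30c, Trim30a and Trim30d. Of these 5 were tested, 3 fell and 0 rose, while 21.5% of all tested genes fell, and the calls of 2 of the 3 (Trim30a and Trim34b) ended when single libraries were left out. Trim12c, which acts with TRAF6 in mouse cells, fell from 31.0 ± 0.960 to 23.8 ± 0.929 CPM (SD, n = 3, log2 fold change -0.38, standard error 0.0696, edgeR adjusted p = 0.000142). Trim30a, which in mouse restrains Toll-like receptor signalling by removing TAB2 and TAB3, fell from 42.8 ± 1.33 to 36.9 ± 2.83 CPM (log2 fold change -0.21, standard error 0.0669, adjusted p = 0.0143). The call of Trim30a ended without normoxic-EV replicate 3 (adjusted p = 0.0724) and without hypoxic-EV replicate 1 (adjusted p = 0.0852).

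Trim34b was read at 43, 51 and 48 counts in normoxic-EV and 30, 33 and 39 counts in hypoxic-EV, or 2.57, 2.98 and 2.13 CPM against 1.77, 1.68 and 1.68 CPM. Its hypoxic-EV libraries lay below all normoxic-EV libraries (log2 fold change -0.57, standard error 0.209, edgeR adjusted p = 0.0324). Trim34a was at 2.23 ± 0.597 and 1.72 ± 0.0121 CPM with overlapping groups (log2 fold change -0.35, adjusted p = 0.244). The call of Trim34b ended without each library other than normoxic-EV replicate 3, with adjusted p from 0.0522 to 0.151. Trim30d was at 0.41 (adjusted p = 0.323).

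Copies in this cluster are similar, so the deposited counts may divide reads between them. Of the distinct 50-base words in the annotated transcripts, Trim34b shared 56.8% with Trim34a, Trim12c shared 33.7% with other genes, mainly Trim5, and Trim30a shared 5.98%. Added together, Trim34a and Trim34b had a log2 fold change of -0.46 (standard error 0.171, edgeR adjusted p = 0.0323). The sum of Trim12a, Trim12c and Trim5 had -0.38 (standard error 0.0696, adjusted p = 0.000133), and that of Trim30a to Trim30d had -0.18 (standard error 0.0677, adjusted p = 0.0348). Only the sum of Trim34a and Trim34b joins copies of similar depth, since Trim12c and Trim30a hold nearly all counts of the other sums, which therefore repeat the single genes. Reads that map to several copies may also have been dropped before counting. Trim6 and Trim12a had 0 counts in each library, while Trim5, Trim30b and Trim30c had 5, 36 and 58 counts in all.

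Several members that fell carry, in the window around the gene start, a core of the interferon-stimulated response element (ISRE), which interferon-activated factors are known to bind. The core was searched as GAAANNGAA on both strands of RefSeq promoter windows (GRCm38.p6, from 250 bases before to 50 after the annotated start). A window was found for 53 of the 68 members. A core lay in a window of 7 of the 12 members that fell (Trim2, Trim12c, Trim21, Trim25, Trim26, Trim30a and Trim34b). The calls of Trim2, Trim21, Trim26, Trim30a and Trim34b ended when single libraries were left out. Trim41, Trim46, Trim56 and Trim68, whose falls kept their call in every alternative, hold no core. Of the 6 members with a window that rose, 0 had a core, and Trim14, Trim16 and Trim65 rose but have no window. The core lay in 3 of 13 members not called (Trim7 and the cluster copies Trim30d and Trim34a) and in 2 of 22 not tested. Among other tested genes it lay in a window of 10.3% of those that fell, 8.19% of those that rose and 8.47% of those not called, and over 32544 distinct windows in 8.53%. Trim12c, Trim30a and Trim34b are relatives in the same cluster, so their windows are not independent, and genes with several annotated starts have more windows to match.

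The 250 bases before the start are shown for the 5 members that fell and hold the core in that stretch, 5′ to 3′ along the gene, with capitals marking the core, which lies on the opposite strand in each. Trim25 is at chr11:88999153-88999402, plus strand, Trim26 at chr17:36836896-36837145, plus strand, Trim30a at chr7:104465194-104465443, minus strand, Trim12c at chr7:104353350-104353599, minus strand, and Trim34b at chr7:104329221-104329470, plus strand, all in GRCm38.p6. Counted back from the start, the core covers bases 9 to 1 in Trim25, 28 to 20 in Trim12c, 35 to 27 in Trim30a and 211 to 203 in Trim34b, while Trim26 holds a pair of overlapping cores, at 159 to 151 and 153 to 145. Another annotated start of Trim30a (250 bases before it at chr7:104446126-104446375, minus strand) has no core in that stretch. The matches of Trim21 and Trim2 lie in the 50 bases after the start.
Trim25: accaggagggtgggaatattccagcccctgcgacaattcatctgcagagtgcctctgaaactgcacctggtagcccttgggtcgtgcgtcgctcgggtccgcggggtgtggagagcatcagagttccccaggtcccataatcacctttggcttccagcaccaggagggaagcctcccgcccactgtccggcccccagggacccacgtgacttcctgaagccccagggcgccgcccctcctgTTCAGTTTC
Trim26: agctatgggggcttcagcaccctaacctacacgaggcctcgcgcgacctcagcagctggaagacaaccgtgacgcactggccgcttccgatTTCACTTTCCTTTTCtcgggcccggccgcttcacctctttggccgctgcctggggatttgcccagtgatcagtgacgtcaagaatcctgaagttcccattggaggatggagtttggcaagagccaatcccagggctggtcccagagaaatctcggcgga
Trim30a: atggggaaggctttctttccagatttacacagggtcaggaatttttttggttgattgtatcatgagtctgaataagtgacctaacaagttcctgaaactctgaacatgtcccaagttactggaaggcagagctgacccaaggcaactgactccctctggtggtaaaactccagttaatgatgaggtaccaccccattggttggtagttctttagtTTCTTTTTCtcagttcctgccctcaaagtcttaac
Trim12c: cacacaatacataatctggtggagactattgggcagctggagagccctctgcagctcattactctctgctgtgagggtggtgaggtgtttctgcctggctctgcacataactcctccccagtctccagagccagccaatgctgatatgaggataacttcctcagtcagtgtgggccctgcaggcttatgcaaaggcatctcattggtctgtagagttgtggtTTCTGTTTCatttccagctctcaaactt
Trim34b: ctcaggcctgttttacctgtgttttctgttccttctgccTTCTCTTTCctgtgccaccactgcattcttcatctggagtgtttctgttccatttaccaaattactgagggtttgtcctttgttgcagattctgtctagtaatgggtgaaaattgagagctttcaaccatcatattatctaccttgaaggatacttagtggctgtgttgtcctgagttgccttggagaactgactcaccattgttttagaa

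The other 4 motifs searched matched few members. The interferon-gamma-activated site (TTCNNNGAA) matched in 1 of 12 members that fell and 0 of 6 that rose, against 7.96% and 7.27% of the other tested genes that fell and rose. The hypoxia-inducible factor core (ACGTG) matched in 3 of 12 and 1 of 6, against 32.1% and 29.4%. The NF-kB site, searched by its usual ambiguous form, matched in 1 of 12 and 1 of 6, against 12.3% and 13.2%. The cell-cycle homology region (TTTGAA) matched in 1 of 12 and 1 of 6, against 14.0% and 17.9%, and the member that rose was Trim59. Over all distinct windows these 4 motifs, each searched on both strands, matched in 8.33%, 19.7%, 8.49% and 17.8%. Such a match is a string of letters in the window and says nothing of binding in these cells.

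The 4 chromatin cofactors share a PHD finger and a bromodomain, and 1 of them rose while 3 were not called. That is 25% called, against 44.2% of all tested genes. Trim28, known as KAP1, recruits histone methyltransferase and heterochromatin proteins to genes bound by KRAB zinc finger proteins. Its CPM values were 204, 200.2 and 200.3 in normoxic-EV and 259, 244 and 250.1 in hypoxic-EV. Every hypoxic-EV library was above every normoxic-EV library, and Trim28 (ENSMUSG00000005566, chromosome 7, 12733041 to 12764962) was 1.25-fold higher (log2 fold change 0.32, standard error 0.0451, edgeR adjusted p = 7.16e-06). Trim33, which binds SMAD proteins and is known to repress the interferon-beta gene in macrophages, had 211, 206 and 223 CPM in normoxic-EV and 211, 227 and 204 CPM in hypoxic-EV. Its values overlapped throughout, with means of 214 ± 8.85 and 214 ± 11.8 CPM (log2 fold change -0.00, standard error 0.0503, adjusted p = 0.995). Trim24, a ligase for p53, was at 26.8 ± 0.561 and 24.6 ± 1.79 CPM (-0.12, adjusted p = 0.186). Trim66, best known from testis, was at 2.89 ± 0.693 and 2.13 ± 0.401 CPM (-0.47, adjusted p = 0.0809) and was called lower without normoxic-EV replicate 1 (adjusted p = 0.0393).

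**Figure D4:**
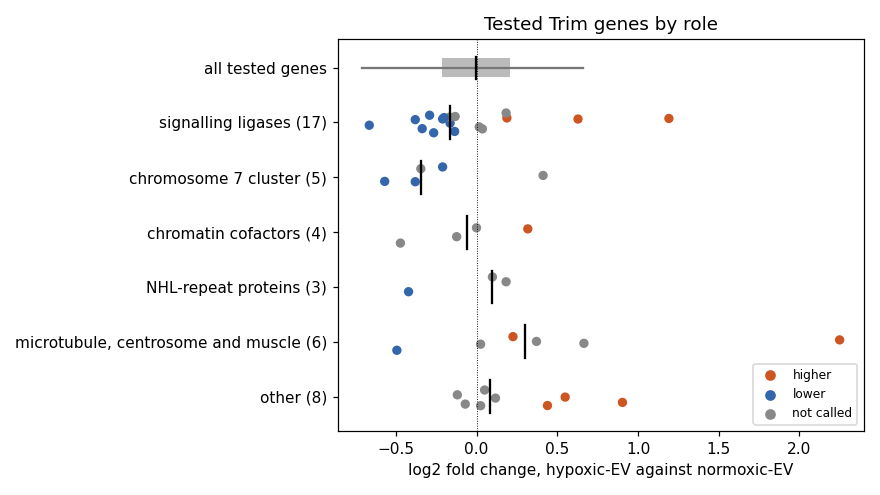
Log2 fold change of the tested Trim genes by role, with the number tested in parentheses, orange for higher, blue for lower and grey for not called, and a black bar at each group's median. The top row gives all 13303 tested genes (box from the 25th to the 75th percentile, line from the 5th to the 95th). A gene with a pair of roles appears in both, and the signalling and chromosome 7 groups have medians of -0.16 and -0.35.

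Trim59 rose most among the members above 1 FPKM. It encodes a ligase anchored in the endoplasmic reticulum membrane that is known to be high in proliferating cells. Its CPM values were 49.0, 44.0 and 52.8 in normoxic-EV and 87.7, 97.7 and 88.0 in hypoxic-EV. The lowest hypoxic-EV library was far above the highest normoxic-EV library. Trim59 (ENSMUSG00000034317, chromosome 3, 68942621 to 68952088, GRCm39) was 1.87-fold higher (log2 fold change 0.90, standard error 0.0648, edgeR adjusted p = 3.94e-10), and each alternative run for it kept the call. Of its transcripts' 50-base words, 5.62% occur in other genes.

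The promoters of Trim59 and Trim56 are shown because these members had the largest rise and the largest fall above 1 FPKM. The 250 bases before the start of Trim59 (chr3:69044743-69044992, minus strand, GRCm38.p6) hold the cell-cycle homology region on the opposite strand, in capitals, and those of Trim56 (chr5:137116208-137116457, minus strand, GRCm38.p6) hold none of the 5 motifs searched.
Trim59: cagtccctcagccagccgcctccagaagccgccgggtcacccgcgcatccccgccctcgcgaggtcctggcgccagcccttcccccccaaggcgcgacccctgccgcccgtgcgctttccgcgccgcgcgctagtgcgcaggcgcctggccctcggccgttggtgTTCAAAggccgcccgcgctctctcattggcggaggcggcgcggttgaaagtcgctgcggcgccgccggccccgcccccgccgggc
Trim56: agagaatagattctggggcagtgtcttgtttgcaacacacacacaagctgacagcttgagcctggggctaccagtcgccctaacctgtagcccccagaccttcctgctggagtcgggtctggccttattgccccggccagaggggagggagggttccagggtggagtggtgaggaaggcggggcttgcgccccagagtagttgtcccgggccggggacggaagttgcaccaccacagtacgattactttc

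Members known from microtubules, centrosomes and muscle were low, apart from Trim37 and Trim46. Of 10 in this group 6 were tested, 2 rose and 1 fell, or 50% called, near the 44.2% of all tested genes, and 1 of the rises is Trim54, which passed the filter only through hypoxic-EV. Trim37, a ligase that limits the number of centrosomes, rose from 74.4 ± 1.70 to 86.9 ± 5.68 CPM (log2 fold change 0.23, standard error 0.055, edgeR adjusted p = 0.00215). Trim46, which organises microtubules at the start of the axon, fell from 22.8 ± 1.05 to 16.1 ± 1.06 CPM (-0.49, standard error 0.0815, adjusted p = 4.45e-05). Trim46 overlaps Krtcap2 on the other strand by 344 bases. Krtcap2, whose total count was 795% of that of Trim46, fell by 0.26 on the log2 scale (adjusted p = 0.00427), and the part of its reads in the value of Trim46 was not tested. Trim36 and Trim69 were at 0.02 and 0.37 and were not called.

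The muscle ring finger genes Trim54, Trim55 and Trim63 encode ligases of the sarcomere. Trim54 had 4, 2 and 3 counts in normoxic-EV and 14, 11 and 22 counts in hypoxic-EV, or 0.239, 0.117 and 0.133 CPM against 0.826, 0.561 and 0.947 CPM. The groups were apart, but at the edge of detection, since a count of 3 in a library came to between 0.128 and 0.179 CPM. It was called higher (log2 fold change 2.25, standard error 0.464, edgeR adjusted p = 0.000475). Only the hypoxic-EV libraries brought it past the count filter (0 normoxic-EV and 3 hypoxic-EV libraries above the limit), so a tested Trim54 had to differ. A minimum of 1 CPM in 3 libraries removed it from the test, and so did leaving out hypoxic-EV replicate 3. The authors' deposited table gives it a log2 fold change of 2.28 and an adjusted p of 0.00833. Trim63 had 0.725 ± 0.0726 and 1.16 ± 0.194 CPM (0.66, standard error 0.293, edgeR adjusted p = 0.072). Its groups did not overlap, and limma on log2(FPKM + 0.1) called it higher (limma adjusted p = 0.0332). Trim55 had 14 counts in all and was not tested. None of 6 markers of muscle cells passed the filter. Their sum was 0.175 to 0.444 CPM in normoxic-EV and 0.177 to 0.516 CPM in hypoxic-EV, and Myh1 was at 0 throughout.

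The NHL-repeat genes include Trim2 and Trim3, which are best known from neurons, and Trim71, which acts in embryonic stem cells. Trim2 fell from 5.54 ± 0.808 to 4.14 ± 0.294 CPM (log2 fold change -0.42, standard error 0.15, edgeR adjusted p = 0.0273). That call ended without normoxic-EV replicate 2 or 3 or hypoxic-EV replicate 1 or 2, with adjusted p from 0.0654 to 0.12. Trim3 stood at 18.9 ± 1.73 and 20.1 ± 1.56 CPM (0.10, adjusted p = 0.394), and Trim71 had 1 count in all.

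Of the 21 members with other roles, 8 were tested, 3 rose and 0 fell, with Trim59 among the rises. That is 37.5% called, against 44.2% of all tested genes (22.7% higher and 21.5% lower). Trim16, which binds galectin 3 on damaged lysosomes, rose from 5.25 ± 0.883 to 7.04 ± 0.367 CPM (log2 fold change 0.44, standard error 0.141, edgeR adjusted p = 0.015). Its call ended without normoxic-EV replicate 3 or hypoxic-EV replicate 3, with adjusted p of 0.104 and 0.056. Trim62, a ligase for the adaptor CARD9, had 20, 38 and 46 counts in normoxic-EV and 47, 48 and 66 counts in hypoxic-EV, or 1.20, 2.22 and 2.04 CPM against 2.77, 2.45 and 2.84 CPM. The groups did not overlap, yet normoxic-EV replicate 1 lay well below the other normoxic-EV libraries (log2 fold change 0.55, standard error 0.22, adjusted p = 0.049). Without that library the log2 fold change was 0.35 (adjusted p = 0.238), and the call also ended without normoxic-EV replicate 3 or hypoxic-EV replicate 1 or 3, with adjusted p from 0.055.

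Trim35, at rank 3 in level, whose human protein binds pyruvate kinase M2, had 194, 188 and 194 CPM in normoxic-EV and 191, 193 and 202 CPM in hypoxic-EV. Its groups overlapped (log2 fold change 0.02, standard error 0.0457, edgeR adjusted p = 0.691). Trim44, an atypical member with a ubiquitin-binding zinc finger, Trim45, which carries a filamin-type repeat, Trim47 and Trim7, known to bind glycogenin, were at 0.05, -0.12, 0.12 and -0.07 and were not called. Of the 18 members that had counts but were not tested, Trim30c had the most (58 counts in all) and Trim40 and Trim71 had 1 count each. The embryo-expressed genes Trim43a, Trim43b and Trim43c had 12, 5 and 18 counts. A count of 0 allows a level of up to 0.179 CPM in the shallowest library. That limit covers counting error alone, as reads without molecular identifiers can be copies of 1 molecule.

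**Figure D5:**
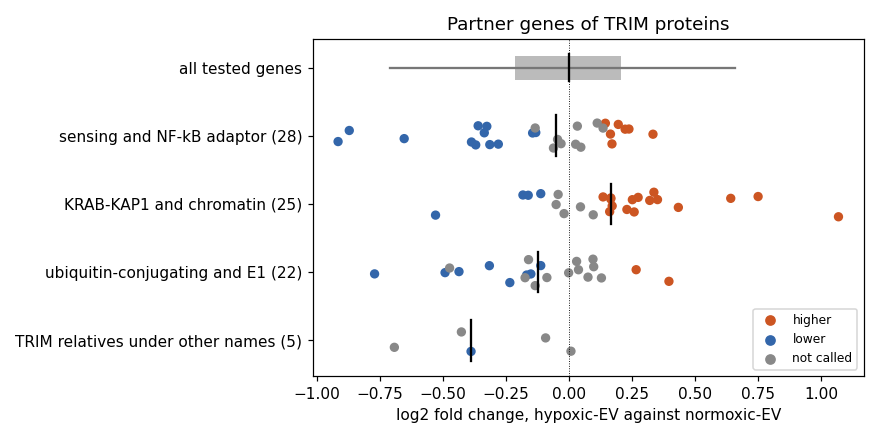
Log2 fold change of the tested genes of 4 lists of partners and relatives of TRIM proteins, with the number tested in parentheses, orange for higher, blue for lower, grey for not called and a black bar at each median. The top row gives all tested genes (box from the 25th to the 75th percentile, line from the 5th to the 95th), and the chromatin list has its median at 0.17.

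Genes whose products work with TRIM proteins moved in both directions. Of 28 sensing and NF-kB adaptor genes, 7 rose and 12 fell, or 67.9% called, against 44.2% of all tested genes (22.7% higher and 21.5% lower). The median log2 fold change was -0.05, against -0.00 over all tested genes, and without normoxic-EV replicate 2 only 3 rose. The median size of change was 0.18, against 0.21 over all tested genes, so the larger share called did not come with larger changes. The list's 3 members of lowest p were Zc3hav1, an antiviral zinc finger gene whose product works with TRIM25, at -0.87, the ubiquitin-like modifier gene Isg15 at -0.92 and the TBK1-binding adaptor gene Tank at -0.36. Ifih1, which encodes MDA5, fell by 0.31 (edgeR adjusted p = 0.000933) while its ligase gene Trim65 rose. Rigi and Sting1 were not called, at -0.06 and 0.13, and their ligase genes Trim25 and Trim56 fell. Ifih1, Rigi and Sting1 were named after their values were seen.

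Of 25 partners of Trim28, Trim24 and Trim33 in chromatin, 16 rose and 4 fell (median 0.17), or 80% called against 44.2% of all tested genes. Here too the median size of change, 0.18, was below the 0.21 of all tested genes. The part of read depth in the called shares was not tested. The members of lowest p were the maintenance DNA methyltransferase gene Dnmt1, which rose from 104 to 174 CPM (log2 fold change 0.75), the signal transducer gene Smad3 (1.07) and the heterochromatin protein gene Cbx3 (0.64). Only 1 fell without normoxic-EV replicate 3 and likewise without hypoxic-EV replicate 3. Of 22 tested ubiquitin-activating, ubiquitin-conjugating and ubiquitin genes, 2 rose and 8 fell (median -0.12), or 45.5% called, a share near that of all tested genes. The conjugating enzyme genes Ube2g2 and Ube2w were at -0.77 and -0.49, and the main activating enzyme gene Uba1 at 0.40. Their rises numbered 1 without normoxic-EV replicate 1 or 3 or hypoxic-EV replicate 2, and their falls 5 without normoxic-EV replicate 1 or 3.

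Relatives of the family under other names were mostly low. Of 12 such genes 5 were tested, and 1, the RIG-I ligase gene Rnf135, fell, from 10.5 to 8.06 CPM (log2 fold change -0.39, edgeR adjusted p = 0.00929). Without normoxic-EV replicate 3 none was called, and without hypoxic-EV replicate 1 there were 2. Pml, the organiser of PML nuclear bodies, was at 37.7 and 35.4 CPM (-0.09, adjusted p = 0.303) and Mid1, a microtubule-binding ligase gene, at 0.01. Mefv, which encodes pyrin, did not pass the filter.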

How the data were processed

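Poly(A) RNA of 6 samples was sequenced in pairs on an Illumina HiSeq instrument, per the labels' protocols. HISAT2, featureCounts, DESeq2 and the build GRCm39 are named in the submitters' processing notes. Not given in the sources used here are tool versions, annotation, strand setting and multi-mapping. Whole-number counts per gene were used as deposited by the authors. The deposited FPKM equal count divided by library total and by a length constant across libraries (largest relative spread 9.55e-15 over 16411 genes). The authors' deposited table gives log2 fold changes and adjusted p-values, computed by the authors, for 462 genes. Per-sample columns were matched to the labels.

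The quasi-likelihood test of edgeR 4.0.16 (R 4.3.3) was run on the counts: filterByExpr (minimum count 10, total 15), TMM scaling, the two-sided quasi-likelihood F-test over 13303 genes and Benjamini-Hochberg adjustment, with hypoxic-EV against normoxic-EV and no covariate. CPM are TMM-scaled; ± is SD over 3 libraries; SE is the log2 fold change over the square root of F. Members and lists were chosen with earlier results of these data known. Full values were given for called members with a log2 fold change of at least 0.5 in size, called members among the 10 of highest FPKM and the 3 highest not called, and for partner lists the 3 called of lowest p. Of the partner symbols, Ddx58 and Tmem173 are older names of listed genes. Gene overlaps came from the deposited annotation, and shared 50-base words from GENCODE M21 transcripts, whose build (GRCm38) differs from the files', so no coordinates were taken from it. Protein sequences were not used here, and the lymphocyte marker list is not reported here in full. Alternatives were another normalization, DESeq2 1.42.0, other filters, limma 3.58.1 on log2(FPKM + 0.1), a replicate block, summed copies and each library left out.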

Additional observations from a re-analysis of the deposited data

How the results depend on the processing

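Of the 21 called members, 13 kept their call and direction in every alternative that could be computed for them. Another 8 lost the call in at least 1, and 0 reversed. Trim54, among the 13, was not tested at a minimum of 1 CPM in 3 libraries or without hypoxic-EV replicate 3. Of 19 not called, 5 were called in at least 1. DESeq2 called 7 members higher and 7 lower, of 9 and 12 in edgeR, with Trim2, Trim16, Trim21, Trim23, Trim26, Trim34b and Trim62 not called; the cause was not tested. Limma on log2(FPKM + 0.1) called 9 higher and 9 lower, with Trim2, Trim23, Trim26 and Trim62 not called and Trim63 called higher. With each library left out in turn the counts ran from 6 to 10 higher and from 8 to 9 lower, and calls over all genes from 4993 to 5778. Over the same 6 fits, rises of sensing genes ran from 3 to 7, falls of chromatin partners from 1 to 4, rises of ubiquitin genes from 1 to 2, their falls from 5 to 9, and falls of relatives from 0 to 2. With no filter, 2 chromatin partners fell and 1 relative rose. No pairing of the samples by label number was seen (correlations of deviations -0.016, -0.018 and -0.018 for numbers 1 to 3), and no sample correlated best with its own number. With 3 libraries per group, this check cannot exclude that samples were handled in pairs. A replicate block gave 9 higher, 10 lower and 5662 calls over all genes.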
